A study of Homo sapiens with 30 samples.

Results

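The 38 genes described here cover glucose and lactate transport, glycolysis, its regulators, oxygen sensing, genes commonly induced by low oxygen, and the pentose phosphate pathway. They were taken by symbol from a named list, and all 38 were found among the 54300 gene symbols of the count table and passed the filter on low counts, which 21554 symbols passed. RNA was sequenced from Jurkat E6-1, a line grown from a human T cell leukaemia, in SLAMF6 isoform 1 knockout (KO) and unedited (WT) cells at 0, 6, 12, 24 and 36 h of activation. The labels also write the edited cells as SLAMF6∆17-65 and do not say how many clones were taken. PMA, a phorbol ester, and ionomycin, a calcium ionophore, bypass the T cell receptor and were given to activate the cells, and those at 0 h were unstimulated. Each of the 10 groups, KO and WT at each of 5 times, held 3 libraries. The labels do not say whether these came from separate cultures, so p-values measure the spread between libraries, which may be technical. The labels give the time points without a unit, and hours were taken because the treatment protocol is written in hours. The series title speaks of an overexpressed isoform 3 while its design names the isoform 1 knockout, and the design was followed.

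Glycolysis splits glucose into pyruvate, which lactate dehydrogenase turns into lactate, and activated T cells are known for taking up more glucose and running this route faster. The pentose phosphate pathway branches off after the step of hexokinase and makes NADPH and ribose for nucleotides. The transcription factor subunit HIF1A is marked for destruction by prolyl hydroxylases of the EGLN family when oxygen is present, and when it persists it binds a short core sequence, ACGTG or GCGTG, beside many glycolytic genes.

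Promoters are shown for 5 of the members that were lower in KO than in WT at 0 h, as described further on. ALDOA, GPI and TPI1 were lower there too and are not shown. The promoter windows, from RefSeq on GRCh38.p14, run from 250 bases before the annotated start to 50 after it, and 32 of the 38 members matched the table by symbol. SLC2A3, SLC16A1, PFKFB2, BNIP3L, VEGFA and NDRG1 had no entry. Capitals mark ACGTG or GCGTG and, on the other strand, CACGT or CACGC.
PGK1 (chrX:78103998-78104297, plus strand): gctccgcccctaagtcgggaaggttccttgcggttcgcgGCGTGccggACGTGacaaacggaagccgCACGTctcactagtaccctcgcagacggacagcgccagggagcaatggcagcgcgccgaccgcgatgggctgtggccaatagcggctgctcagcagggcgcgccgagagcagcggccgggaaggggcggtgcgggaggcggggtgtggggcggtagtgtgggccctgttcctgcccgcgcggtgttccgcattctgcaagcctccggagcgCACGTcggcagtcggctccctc
ALDOC (chr17:28576846-28577145, minus strand): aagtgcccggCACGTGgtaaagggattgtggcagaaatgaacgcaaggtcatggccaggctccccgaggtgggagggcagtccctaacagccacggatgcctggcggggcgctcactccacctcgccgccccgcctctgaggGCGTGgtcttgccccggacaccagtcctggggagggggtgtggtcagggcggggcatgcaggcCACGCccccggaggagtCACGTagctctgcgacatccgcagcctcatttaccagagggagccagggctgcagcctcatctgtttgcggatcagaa
ENO1 (chr1:8878637-8878936, minus strand): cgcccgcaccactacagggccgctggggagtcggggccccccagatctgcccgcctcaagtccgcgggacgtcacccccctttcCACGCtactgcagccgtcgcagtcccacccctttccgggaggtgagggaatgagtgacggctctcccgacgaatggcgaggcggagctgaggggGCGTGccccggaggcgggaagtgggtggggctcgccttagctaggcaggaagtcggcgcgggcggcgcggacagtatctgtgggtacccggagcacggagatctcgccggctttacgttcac
LDHA (chr11:18394313-18394612, plus strand): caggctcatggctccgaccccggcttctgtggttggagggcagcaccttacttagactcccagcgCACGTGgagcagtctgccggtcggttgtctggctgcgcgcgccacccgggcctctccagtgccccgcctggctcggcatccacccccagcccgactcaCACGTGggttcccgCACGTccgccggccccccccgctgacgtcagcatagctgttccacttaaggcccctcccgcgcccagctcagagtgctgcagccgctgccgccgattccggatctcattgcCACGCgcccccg
PKM (chr15:72231141-72231440, minus strand): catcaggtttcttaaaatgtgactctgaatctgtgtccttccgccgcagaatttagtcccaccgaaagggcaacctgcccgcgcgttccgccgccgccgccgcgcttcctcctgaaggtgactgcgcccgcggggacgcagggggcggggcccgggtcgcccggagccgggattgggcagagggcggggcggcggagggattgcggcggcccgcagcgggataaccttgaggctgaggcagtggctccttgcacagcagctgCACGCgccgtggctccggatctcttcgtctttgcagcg

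Taking the first listed window of each gene, 21 of the 32 member promoters (65.6%) held ACGTG or GCGTG on either strand, and 48.4% of all 27305 promoters of the same length held them. ACGTG was found in 13 of 32 (40.6%), against 21.6% of all promoters, and GCGTG in 14 of 32 (43.8%), against 36.3%. The PGK1 window held 3 ACGTG matches and 1 GCGTG match, the ENO1 window 2 GCGTG matches, and the PKM window 1 GCGTG match, which lies after the start. The ALDOC window held 3 ACGTG and 2 GCGTG matches, and the LDHA window 5 and 1. The ALDOA and GPI windows, which are not shown, held 1 ACGTG match each and no GCGTG match. The palindrome CACGTG, which contains ACGTG on both strands and is there counted on each, was found in 5 of 32 member promoters (15.6%) and in 7.43% of all promoters. It occurs 1 time in the ALDOC window and 2 times in that of LDHA. TPI1, PGAM1, EGLN3, PFKP and TKT, which are described further on, were among those with neither core in this window. The 27305 promoters were not limited to genes tested here or matched to the members in base composition, and enrichment was not tested. A match is a run of letters and no measured binding.

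Levels are given as CPM, a gene's counts relative to the library's total after TMM scaling, and that total ran from 5.64 to 28.2 M counts with a median of 20.5 M. All 10 T cell markers had a median over 1 CPM, with summed levels of 3830 to 5560 CPM in KO and 4740 to 6580 CPM in WT libraries. Summed markers of adherent lines, monocytes and erythroid cells stayed at or under 6.45 CPM in every library, and B cell markers summed to 20.7 to 50.7 CPM. Counts of the whole SLAMF6 gene do not separate isoforms and so do not check the edit. In KO libraries SLAMF6 stood at 18.2, 21 and 18.6 CPM at 0 h, 38.8, 40.2 and 47.9 CPM at 6 h, 50.02, 59.3 and 48 CPM at 12 h, 109.7, 113 and 147 CPM at 24 h and 144, 125 and 149 CPM at 36 h. In WT libraries it stood at 19, 25.1 and 19.4 CPM at 0 h, 40.4, 39.9 and 36.1 CPM at 6 h, 53.3, 51 and 49.5 CPM at 12 h, 65.2, 73.9 and 97.4 CPM at 24 h and 101, 102 and 112 CPM at 36 h. Mitochondrially encoded transcripts took 7.19 to 7.85% of counts in KO and 5.96 to 6.02% in WT at 0 h. They took 6.37 to 7.33% in KO and 8.13 to 9.33% in WT at 24 h, and 4.49 to 5.59% in KO and 8.1 to 9.35% in WT at 36 h. Ribosomal protein genes took 7.49 to 7.84% in KO and 5.51 to 5.6% in WT at 36 h. The part of either in the differences at 0, 24 and 36 h, and in the changes between these times, was not tested. In a chi-square comparison of libraries of the same group, the 8 pairs that include KO 6 h replicate 2, KO 12 h replicate 1, KO 24 h replicate 3 or WT 24 h replicate 3 gave 24 to 38.1 per gene, and the other 22 pairs gave 4.15 to 14.9. No pair agreed within counting noise. The titles give the letter A to WT and B to KO libraries at 0 to 24 h and C to both genotypes at 36 h, without saying what it marks, so at 0 to 24 h the letter and the genotype cannot be told apart. Nor can the letter and the time be told apart in any change from 0 h to 36 h.

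At rest the 38 members together took less of the KO transcriptome than of the WT transcriptome, and after 36 h of activation they took more. At 0 h their share of all counts was 1.67 to 1.83% in KO and 2.27 to 2.5% in WT libraries. At 12 h the shares were 1.86 to 2.06% in KO and 1.85 to 1.96% in WT, and the groups overlapped. At 36 h they were 1.76 to 1.84% in KO and 1.31 to 1.5% in WT libraries, with no overlap. The mean share over 3 libraries stood at 1.77% ± 0.0896 (SD), 1.95% ± 0.0252, 1.94% ± 0.108, 1.77% ± 0.204 and 1.79% ± 0.0436 in KO at 0, 6, 12, 24 and 36 h. In WT it stood at 2.4% ± 0.119 (SD), 2.29% ± 0.0361, 1.91% ± 0.0557, 1.54% ± 0.05 and 1.41% ± 0.095 at those times. Mean WT shares were thus lower at every later time than the time before, while mean KO shares were nearly the same at 0, 24 and 36 h. These sums are a description without a test, and the most abundant members weigh most in them. ENO1 alone had a mean of 1998 CPM in KO and 3926 CPM in WT at 0 h, and 2759 and 1754 CPM at 36 h. In the tests described next, 10 of 38 members differed at 0 h, 1 of them higher in KO. At 36 h 15 of 38 differed, 3 of them lower in KO. In bulk RNA, fewer cells with a transcript and less of it per cell cannot be told apart.

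**Figure D1:**
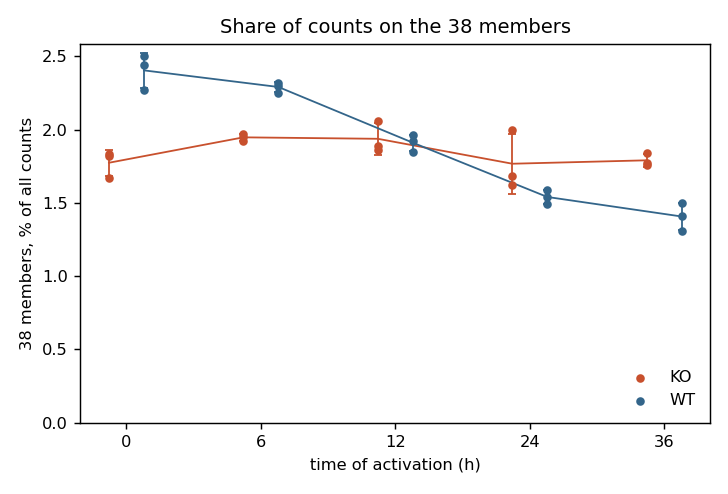
Share of all counts that fell on the 38 members (y axis, %) by time of activation (x axis, h) in KO (orange, left of each pair) and WT (blue) libraries. Points are single libraries, lines join means and bars are SD of 3 libraries; KO lies below WT at 0 and 6 h and above it at 36 h.

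KO was compared with WT at each time to ask how these genes differ without isoform 1. The test was edgeR's quasi-likelihood test fitted to all 30 libraries, with Benjamini-Hochberg adjustment over all 21554 genes. The threshold for a call was an adjusted p of 0.05, and each ± beside a log2 value is its SE. At 0 h, 9 members were lower in KO (23.7% of 38, against 3.11% of all genes tested) and 1 was higher (2.63%, against 2.96%). The 9 were PGK1, ALDOC, ENO1, GPI, BNIP3L, TPI1, LDHA, ALDOA and PKM, and the 1 higher was EGLN3. At 6 h, 9 members were lower (against 4.76% of all genes) and 3 were higher (against 5.21%). At 12 h, 7 were higher (18.4%, against 6.05%) and 0 were lower, against 5.52%. At an unadjusted p under 0.05 edgeR had 1 lower there, PFKFB3, and the DESeq2 test called 1 lower. At 24 h, 7 were higher (against 4.97%) and 1, BNIP3L, was lower (against 4.76%). At 36 h, 12 were higher (31.6%, against 6.95%) and 3 were lower (7.89%, against 6.52%). The median log2 difference of the 38 members was -0.215, -0.136, 0.0128, 0.0712 and 0.15 at 0, 6, 12, 24 and 36 h, while that of all genes tested stood at -0.00528, -0.011, -0.00342, -0.00908 and -0.00207. The 24 h counts rest on few libraries: without KO 24 h replicate 3 the test called 3 members, 2 of them higher, and without WT 24 h replicate 1 it called 5. At 12 h the test called 3 members without WT 12 h replicate 2. Without KO 12 h replicate 1 it called 6, 4 of them higher. At 6 h it called 12 with all libraries, 10 without KO 6 h replicate 2 and 8 without WT 6 h replicate 2. Single omissions gave 8 to 10 calls at 0 h, against 10 with all libraries, and 10 to 13 at 36 h, against 15.

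**Figure D2:**
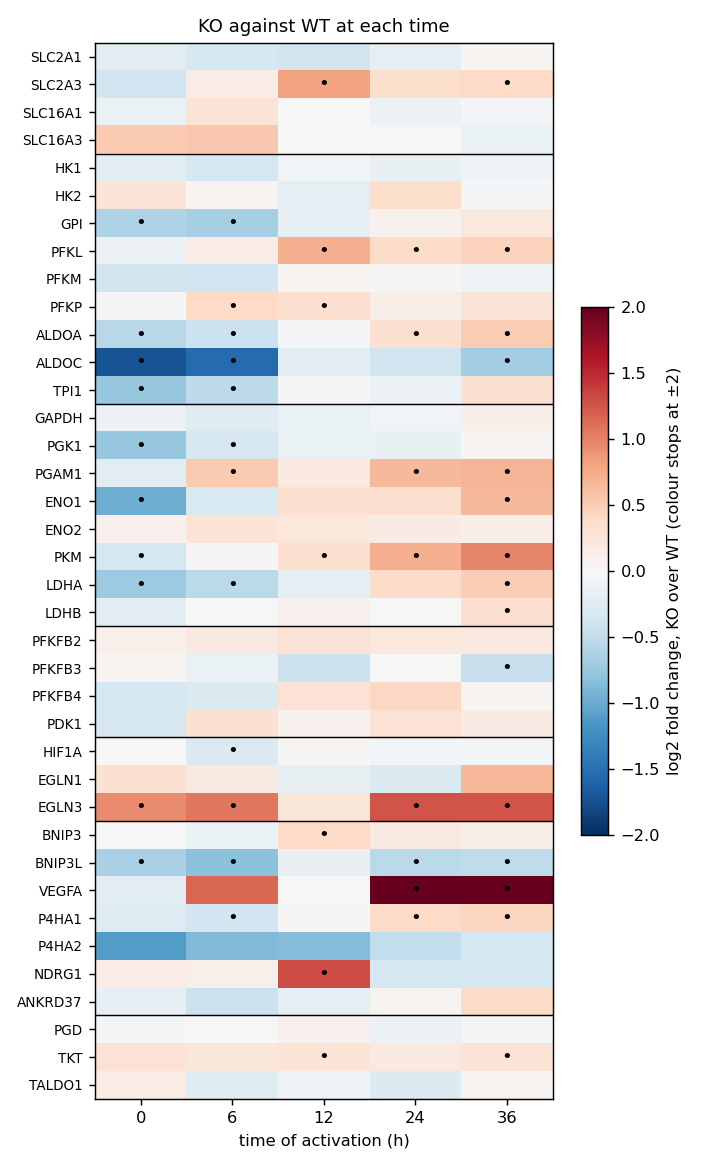
Log2 fold change of KO over WT (colour, red higher and blue lower in KO) for the 38 members (rows, in blocks by role) at each time of activation (columns, h). Dots mark calls at an adjusted p under 0.05; calls at 0 h are blue except for EGLN3, and at 36 h they are red except for ALDOC, PFKFB3 and BNIP3L.

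Members changed after 0 h in both genotypes, and the change from 0 h was tested within each. Unstimulated cells were sampled at 0 h only, so activation and time in culture cannot be told apart in any of these changes. In KO cells 9, 8, 10 and 13 members were higher at 6, 12, 24 and 36 h, against 14, 14.1, 16.1 and 18.6% of all genes, and 12, 15, 13 and 9 were lower, against 13.2, 13.7, 16.7 and 18%. In WT cells 8, 7, 6 and 8 members were higher, against 11.8, 14.8, 17.3 and 20.1% of all genes, and 15, 19, 15 and 16 were lower, against 10.5, 15.6, 17 and 19%. In percent of the 38 members, the WT falls came to 39.5, 50, 39.5 and 42.1%. The KO falls came to 31.6, 39.5, 34.2 and 23.7%. The median log2 change of the members at 36 h was 0.0827 in KO and -0.336 in WT, and that of all genes 0.0443 in KO and 0.014 in WT. At 12 h in WT the median of all genes was itself 0.116 and that of the members -0.403. SLC2A3, HIF1A, PKM and NDRG1 were higher than at 0 h at all 4 times in KO, and SLC2A3, HIF1A, HK1 and NDRG1 at all 4 times in WT.

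**Figure D3:**
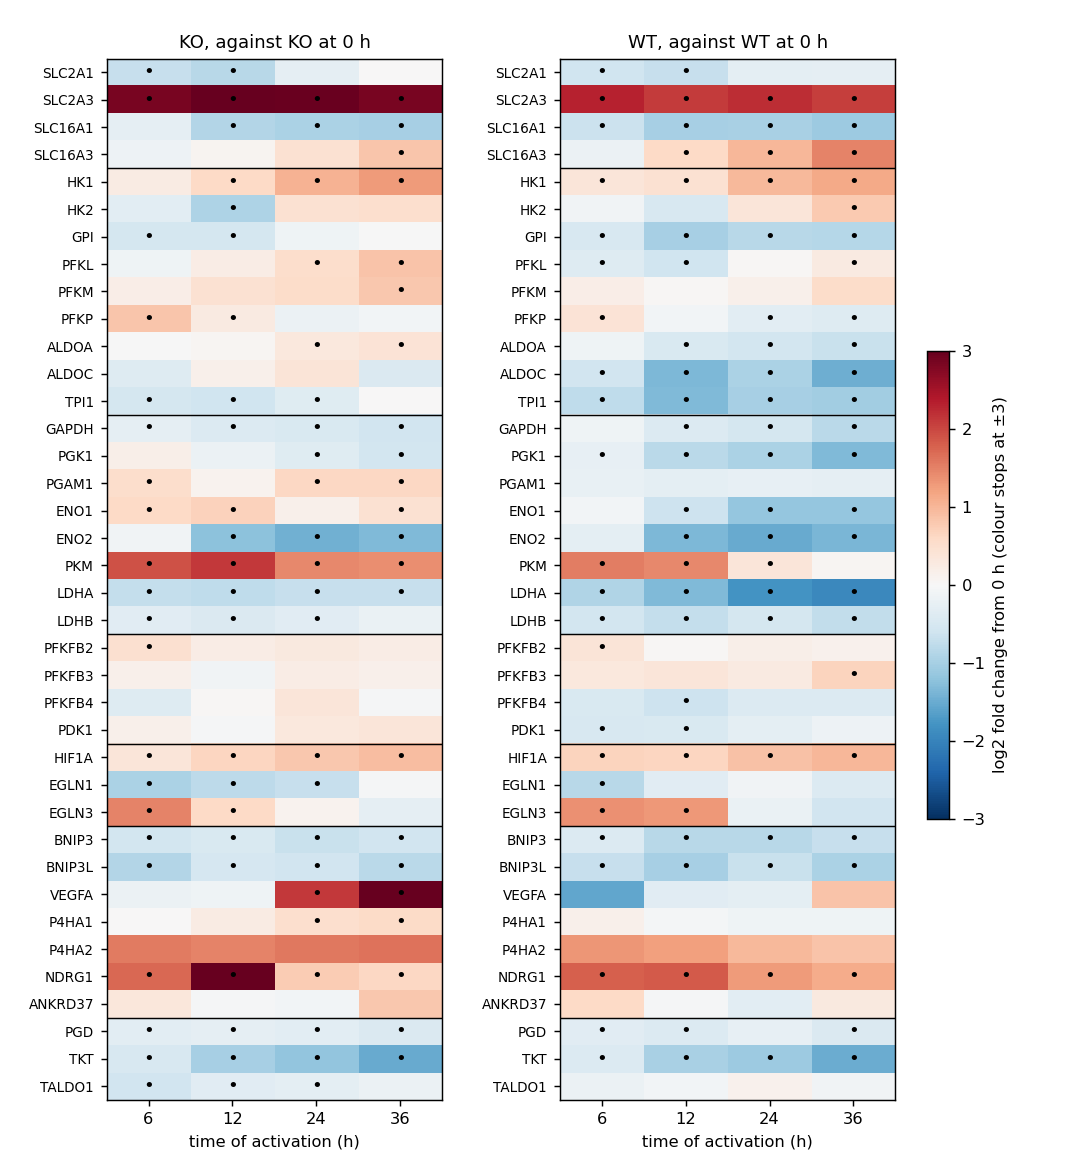
Log2 fold change from 0 h (colour) of the 38 members (rows) at 6, 12, 24 and 36 h of activation (columns), in KO on the left and WT on the right, each against its own 0 h libraries. Dots mark calls at an adjusted p under 0.05; SLC2A3 is red throughout, and the ALDOA, ALDOC, PGK1 and ENO1 rows turn blue in WT but not to that extent in KO.

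A further test asked whether KO and WT cells changed by different amounts since 0 h. Every member called in it had moved up more, or fallen less, in KO: 1 at 6 h (2.63% of 38, against 1.64% of all genes), 8 at 12 h (against 1.42%), 11 at 24 h (28.9%, against 1.84%) and 14 at 36 h (36.8%, against 4.71%). In the other direction 0 members were called at each time, against 1.37, 0.650, 1.70 and 4.62% of all genes. At an unadjusted p under 0.05 edgeR had 2, 2, 1 and 1 in that direction at 6, 12, 24 and 36 h, and the DESeq2 test called 0 at each. A joint test over the 4 later times called 14 members, against 9.84% of all genes. Each of these differences contains the 0 h difference between KO and WT, which the comparison at 0 h uses too, so they are not separate evidence. At 36 h both genotypes carry the title letter C, while at 0 h WT carries A and KO carries B. In the 36 h difference in change, and in the joint test that includes it, letter and genotype therefore cannot be told apart. Without KO 24 h replicate 3, WT 24 h replicate 2 or KO 0 h replicate 2 the 24 h count was 7.

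**Figure D4:**
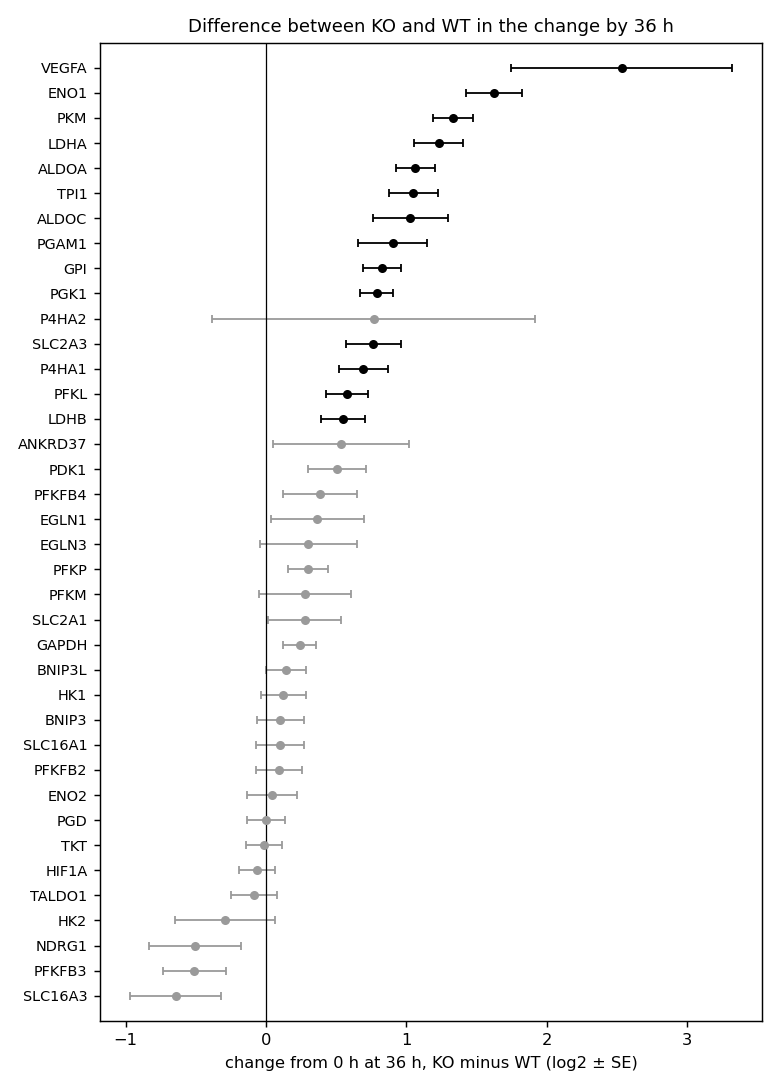
Change from 0 h to 36 h of activation in KO minus that in WT (x axis, log2, bars are SE of the fit) for the 38 members (rows, sorted). Black marks the 14 called at an adjusted p under 0.05, all to the right of 0. SLC16A3, PFKFB3, NDRG1 and HK2 lie furthest left and were not called. The title letters differ between KO and WT at 0 h but not at 36 h, so letter and genotype cannot be told apart here.

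Among the transporters, SLC2A3, the high-affinity glucose carrier GLUT3, rose strongly in both genotypes and further in KO. In KO libraries SLC2A3 stood at 12.3, 9.34 and 9.39 CPM at 0 h, 64.9, 92.8 and 68.2 CPM at 6 h, 90.6, 99.8 and 118 CPM at 12 h, 80.5, 75.6 and 88.5 CPM at 24 h and 72.7, 68.8 and 83.6 CPM at 36 h. In WT libraries it stood at 14.4, 12.9 and 13.6 CPM at 0 h, 66.3, 66.2 and 71.8 CPM at 6 h, 61.5, 52.6 and 62.8 CPM at 12 h, 65.4, 57.5 and 68 CPM at 24 h and 62.3, 52 and 58.5 CPM at 36 h. Every activated library lay above every library at 0 h, and at 12, 24 and 36 h every KO library lay above every WT library. The rise by 12 h was log2 3.29 ± 0.15, adjusted p = 1.17e-18 in KO and log2 2.10 ± 0.14, adjusted p = 6.12e-14 in WT. KO exceeded WT at 12 h (log2 0.80 ± 0.13, adjusted p = 3.99e-05) and at 36 h (log2 0.38 ± 0.13, adjusted p = 0.0442). The 36 h call was lost in 5 of 6 single omissions, with adjusted p of 0.0451 to 0.244. The rise itself was larger in KO at 12 h (log2 1.19 ± 0.20, adjusted p = 0.000263).

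SLC2A1, the GLUT1 carrier that supplies most resting cells, moved the other way early on. In KO libraries SLC2A1 stood at 48.3, 36.3 and 47.9 CPM at 0 h, 36, 20.5 and 26.8 CPM at 6 h, 35.1, 21.3 and 19.3 CPM at 12 h, 36, 28.5 and 46.9 CPM at 24 h and 44.3, 46.7 and 43.3 CPM at 36 h. In WT libraries it stood at 53.6, 49.1 and 54.2 CPM at 0 h, 35.7, 34.8 and 33.9 CPM at 6 h, 31, 38.8 and 28.1 CPM at 12 h, 38.9, 45.9 and 42.8 CPM at 24 h and 46.6, 38.7 and 44.6 CPM at 36 h. KO 6 h replicate 2 and KO 12 h replicates 2 and 3 were the lowest of all, and KO and WT libraries overlapped at 6, 12, 24 and 36 h. SLC2A1 fell by 12 h in KO (log2 -0.82 ± 0.19, adjusted p = 0.000846) and in WT (log2 -0.68 ± 0.18, adjusted p = 0.00467) and was not called against 0 h at 24 or 36 h. No genotype difference was called, the differences lying between -0.37 at 12 h and 0.04 at 36 h on the log2 scale. Per kb of exon, SLC2A3 made up 19.3% ± 2.33 (SD, n = 3) of the 2 carriers' summed level in KO and 21% ± 0.571 in WT at 0 h, against 80.4% ± 7.13 in KO and 64.8% ± 6 in WT at 12 h.

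The lactate and pyruvate carrier SLC16A1 (MCT1) fell in both genotypes by 36 h, with log2 -1.0 ± 0.12, adjusted p = 3.12e-08 in KO and log2 -1.09 ± 0.12, adjusted p = 4.77e-09 in WT. SLC16A3 (MCT4), the carrier that exports lactate from glycolytic cells, rose by 36 h in KO (log2 0.84 ± 0.23, adjusted p = 0.00346) and in WT (log2 1.48 ± 0.23, adjusted p = 3.38e-06). Neither was called between KO and WT at any time. Per kb, SLC16A3 supplied 5.42% ± 1.2 of the pair's level in KO and 3.61% ± 0.478 in WT at 0 h, and 17.1% ± 3.55 in KO and 18.3% ± 2.51 in WT at 36 h (SD, n = 3 each).

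In upper glycolysis, 4 of 9 members were lower in KO at 0 h (GPI, ALDOA, ALDOC and TPI1), against 3.11% of all genes. At 36 h PFKL and ALDOA were higher, against 6.95% of all genes, and ALDOC was lower, against 6.52%. The median of the 9 was -0.372 at 0 h and 0.205 at 36 h on the log2 scale. The hexokinases, which trap glucose as glucose 6-phosphate, were not called between genotypes at any time. HK2, the inducible hexokinase, stood in KO libraries at 42.7, 31.4 and 36.1 CPM at 0 h, 41.2, 11.6 and 36.7 CPM at 6 h, 29.5, 14.8 and 14.2 CPM at 12 h, 46.5, 46.3 and 60.2 CPM at 24 h and 53.9, 55.6 and 47.5 CPM at 36 h. In WT libraries HK2 stood at 28.7, 30.6 and 33.8 CPM at 0 h, 26.6, 28.6 and 31.3 CPM at 6 h, 19.9, 22.4 and 23.9 CPM at 12 h, 41, 42.2 and 36.6 CPM at 24 h and 49.7, 54.3 and 57 CPM at 36 h. KO 6 h replicate 2 was far below its 2 companions, KO 12 h replicate 1 above both of its own, and KO and WT overlapped at 0, 6, 12 and 36 h. HK2 fell by 12 h in KO (log2 -0.92 ± 0.26, adjusted p = 0.00609), and the WT change was not called (log2 -0.49 ± 0.26, adjusted p = 0.153). It rose by 36 h in WT (log2 0.79 ± 0.25, adjusted p = 0.0124), and the KO change was not called (log2 0.50 ± 0.25, adjusted p = 0.128). At both times the changes had the same sign in KO and WT, and no difference between them was called (joint adjusted p = 0.76). Its counterpart HK1, the constitutive form, rose by 36 h in KO (log2 1.27 ± 0.12, adjusted p = 6.41e-11) and in WT (log2 1.15 ± 0.12, adjusted p = 5.51e-10). Per kb, HK1 made up 62.9% ± 1.71 of the 2 in KO and 69.4% ± 3.5 in WT at 0 h, and 74.1% ± 0.312 in KO and 74.7% ± 2.52 in WT at 36 h (SD, n = 3 each).

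GPI, which turns glucose 6-phosphate into fructose 6-phosphate, was lower in KO at 0 and 6 h and was not called between genotypes later. In KO libraries GPI stood at 705, 602 and 698 CPM at 0 h, 454, 479 and 449.8 CPM at 6 h, 486, 466 and 434 CPM at 12 h, 594, 557 and 699 CPM at 24 h and 664, 648 and 664 CPM at 36 h. In WT libraries GPI stood at 1039, 946 and 1098 CPM at 0 h, 745, 725 and 725 CPM at 6 h, 567, 454 and 526 CPM at 12 h, 545, 579.6 and 616 CPM at 24 h and 623, 506 and 585 CPM at 36 h. At 0 and 6 h all KO libraries lay below all WT libraries, and at 36 h all lay above. KO over WT came to log2 -0.62 ± 0.10, adjusted p = 5.63e-05 at 0 h and log2 -0.67 ± 0.10, adjusted p = 7.64e-06 at 6 h. At 36 h it was not called (log2 0.20 ± 0.10, adjusted p = 0.171). GPI fell by 36 h in WT (log2 -0.85 ± 0.10, adjusted p = 8.13e-09) and was not called in KO (log2 -0.02 ± 0.10, adjusted p = 0.895). The difference in change was log2 0.82 ± 0.14, adjusted p = 0.000132.

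PFKL, the liver-type subunit of phosphofructokinase, which catalyses the committing step of glycolysis, had the smallest adjusted p of all members at 12 h. In KO libraries PFKL stood at 82.2, 86.3 and 81.7 CPM at 0 h, 80.01, 80.2 and 69 CPM at 6 h, 93.5, 98.2 and 100.2 CPM at 12 h, 121, 115 and 122 CPM at 24 h and 152, 148 and 149 CPM at 36 h. In WT libraries PFKL stood at 81.7, 95.5 and 95 CPM at 0 h, 75.2, 61.2 and 70.4 CPM at 6 h, 64.9, 49.6 and 64.5 CPM at 12 h, 97.5, 97.8 and 81.9 CPM at 24 h and 117, 100.4 and 109.8 CPM at 36 h. From 12 h on, every KO library lay above every WT library, while at 0 and 6 h they overlapped. KO exceeded WT by log2 0.71 ± 0.10, adjusted p = 1.41e-05 at 12 h, log2 0.37 ± 0.10, adjusted p = 0.0184 at 24 h and log2 0.46 ± 0.10, adjusted p = 0.00231 at 36 h. The 24 h call was lost without KO 24 h replicate 1, KO 24 h replicate 3 or WT 24 h replicate 3, with adjusted p of 0.028 to 0.0845 over the single omissions. PFKP, the platelet-type subunit, was higher in KO at 6 h (log2 0.40 ± 0.10, adjusted p = 0.0076) and 12 h (log2 0.32 ± 0.10, adjusted p = 0.0362), and 1 of 6 and 4 of 6 single omissions ended those calls. PFKM, the muscle-type subunit, supplied 1.13 to 2.13% of the 3 subunits' level per kb in KO group means and 1.76 to 2.85% in WT. The PFKL share per kb was 31.5% ± 2.03 in KO and 32.7% ± 3.68 in WT at 0 h, and 46.2% ± 1.02 in KO and 42.6% ± 1.33 in WT at 36 h, the PFKP share falling in turn.

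ALDOA, the main aldolase, which cleaves fructose 1,6-bisphosphate, crossed over between genotypes. In KO libraries ALDOA stood at 1299, 1075 and 1315 CPM at 0 h, 1191, 1330 and 1161 CPM at 6 h, 1338, 1299 and 1232 CPM at 12 h, 1454, 1382 and 1765 CPM at 24 h and 1674, 1592 and 1614 CPM at 36 h. In WT libraries ALDOA stood at 1805, 1699 and 1919 CPM at 0 h, 1632, 1686 and 1621 CPM at 6 h, 1382, 1202 and 1364 CPM at 12 h, 1166, 1217 and 1309 CPM at 24 h and 1279, 995 and 1152 CPM at 36 h. At 0 and 6 h every KO library was below every WT library, and at 24 and 36 h every KO library was above. KO over WT was log2 -0.55 ± 0.10, adjusted p = 0.000332 at 0 h and log2 0.51 ± 0.10, adjusted p = 0.00037 at 36 h. At 24 h the call (log2 0.32 ± 0.10, adjusted p = 0.0335) was lost without KO 24 h replicate 3, WT 24 h replicate 1 or WT 24 h replicate 2. ALDOA rose by 36 h in KO (log2 0.40 ± 0.10, adjusted p = 0.0012) and fell in WT (log2 -0.66 ± 0.10, adjusted p = 1.2e-06). The joint test gave an adjusted p of 2.02e-06.

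ALDOC, the brain-type aldolase, had the largest resting difference of all called members. In KO libraries ALDOC stood at 42.2, 38 and 43 CPM at 0 h, 26.4, 43.2 and 25.4 CPM at 6 h, 28.4, 52.1 and 58 CPM at 12 h, 54.7, 57.9 and 48.4 CPM at 24 h and 30.9, 30.9 and 29.6 CPM at 36 h. In WT libraries ALDOC stood at 139.7, 117 and 151 CPM at 0 h, 91.7, 97.1 and 87 CPM at 6 h, 48, 49 and 62.5 CPM at 12 h, 80.2, 79.8 and 52.6 CPM at 24 h and 48.7, 44.5 and 54.5 CPM at 36 h. All KO libraries lay below all WT libraries at 0, 6 and 36 h, and at 12 and 24 h the groups overlapped. ALDOC differed by log2 -1.72 ± 0.19, adjusted p = 1.97e-07 at 0 h and log2 -1.53 ± 0.19, adjusted p = 5.63e-07 at 6 h. At 12 h the difference was not called (log2 -0.21 ± 0.19, adjusted p = 0.54). By 36 h ALDOC had fallen in WT (log2 -1.47 ± 0.19, adjusted p = 9.79e-08), and KO was again below it (log2 -0.70 ± 0.19, adjusted p = 0.0116). That call was lost without KO 36 h replicate 3 or WT 36 h replicate 3. Per kb, ALDOC made up 3.81% ± 0.177 of the aldolase level in KO and 8.14% ± 0.534 in WT at 0 h (SD, n = 3 each), and 2.16% ± 0.0662 in KO and 4.87% ± 0.51 in WT at 36 h. TPI1, which interconverts the aldolase products, was lower in KO at 0 h (log2 -0.75 ± 0.12, adjusted p = 0.000126) and 6 h (log2 -0.52 ± 0.12, adjusted p = 0.00458). It fell by 36 h in WT (log2 -1.04 ± 0.12, adjusted p = 2.26e-08) and was not called in KO (log2 0.01 ± 0.12, adjusted p = 0.954), and the difference in change was log2 1.05 ± 0.17, adjusted p = 0.000149.

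**Figure D5:**
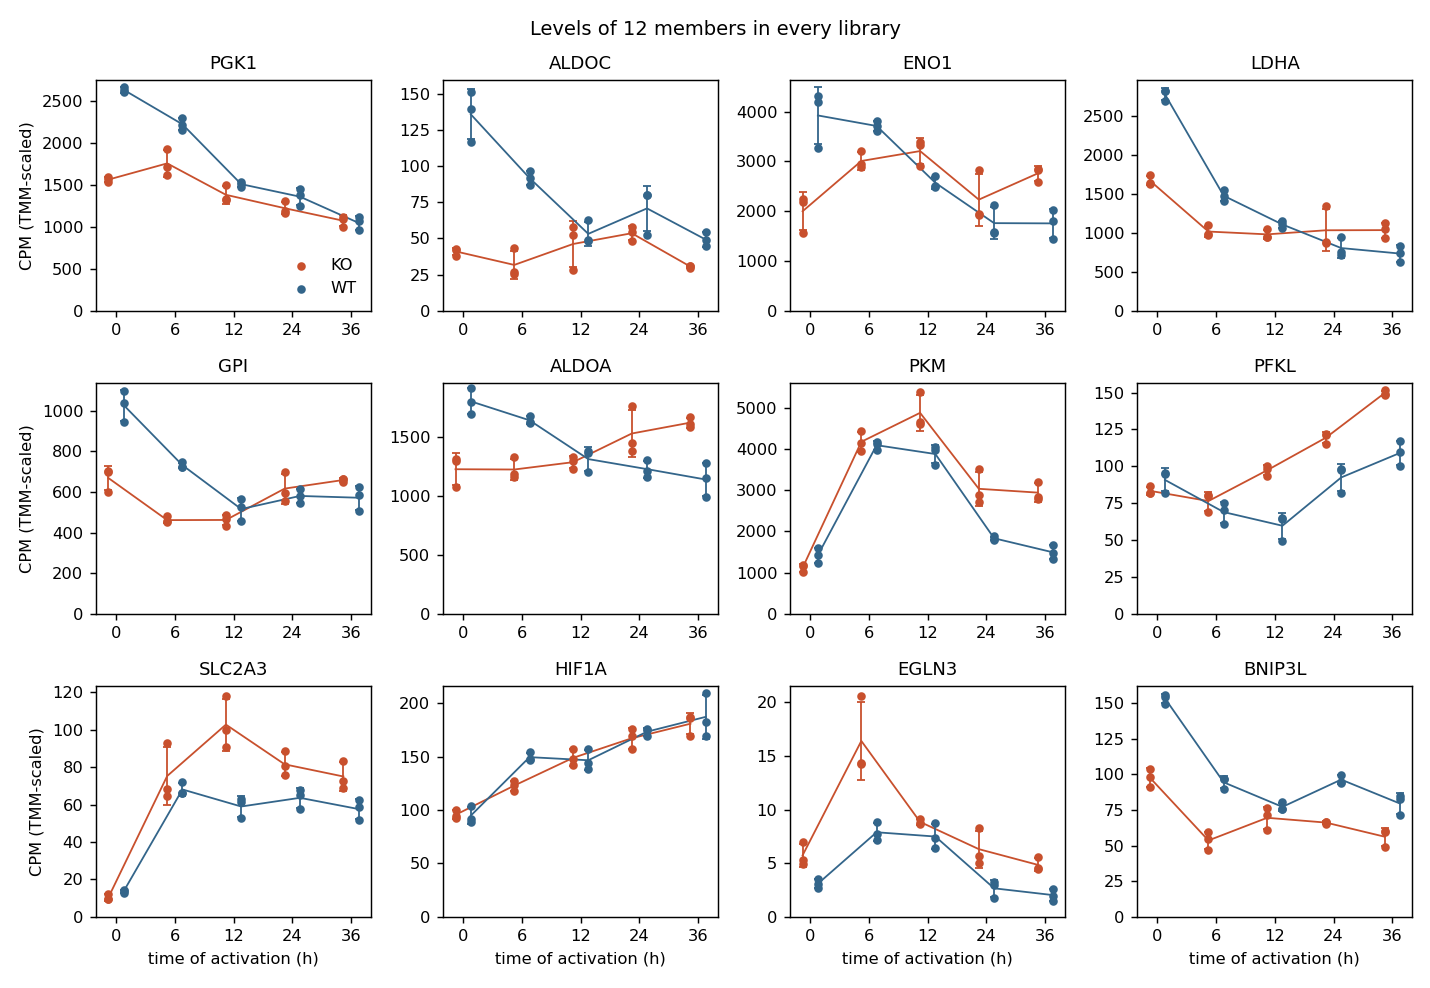
TMM-scaled level (y axes, CPM from 0) of 12 members by time of activation (x axes, h) in KO (orange, left of each pair) and WT (blue). Points are single libraries, lines join means and bars are SD of 3 libraries; PGK1, ALDOC, ENO1, LDHA, GPI, ALDOA and BNIP3L start lower in KO, and PKM, PFKL and SLC2A3 end higher.

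In lower glycolysis, 4 of 8 members were lower in KO at 0 h (PGK1, ENO1, PKM and LDHA), against 3.11% of all genes. At 36 h 5 were higher (PGAM1, ENO1, PKM, LDHA and LDHB), against 6.95% of all genes. The median of the 8 was -0.286 at 0 h and 0.416 at 36 h on the log2 scale. PGK1, the kinase that makes the first ATP of glycolysis and a textbook HIF target, had the smallest adjusted p of all members at 0 h. In KO libraries PGK1 stood at 1529, 1567 and 1593 CPM at 0 h, 1619, 1933 and 1718 CPM at 6 h, 1328, 1315 and 1502 CPM at 12 h, 1166, 1194 and 1306 CPM at 24 h and 1095, 1001 and 1120 CPM at 36 h. In WT libraries PGK1 stood at 2669, 2630 and 2604 CPM at 0 h, 2218, 2295 and 2155 CPM at 6 h, 1540, 1474 and 1512 CPM at 12 h, 1251, 1382 and 1445 CPM at 24 h and 1111, 957 and 1071 CPM at 36 h. At 0 and 6 h the groups did not overlap, and from 12 h on they did. PGK1 was lower in KO at 0 h (log2 -0.75 ± 0.08, adjusted p = 1.54e-07) and 6 h (log2 -0.34 ± 0.08, adjusted p = 0.00566). The 6 h call had an adjusted p of 0.0682 without KO 6 h replicate 1, and at 36 h no difference was called (log2 0.04 ± 0.08, adjusted p = 0.852). By 36 h it had fallen in both genotypes, less in KO (log2 -0.54 ± 0.08, adjusted p = 1.94e-06) than in WT (log2 -1.33 ± 0.08, adjusted p = 6.72e-15). The difference in change was log2 0.79 ± 0.12, adjusted p = 3e-05. At 6 h it was the 1 member called in the difference in change (log2 0.41 ± 0.12, adjusted p = 0.044), and 10 of 12 single omissions ended that call.

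ENO1, the main enolase, which makes phosphoenolpyruvate, had the largest difference in change by 36 h after VEGFA. In KO libraries ENO1 stood at 2192, 1563 and 2240 CPM at 0 h, 2944, 3205 and 2881 CPM at 6 h, 3390, 2910 and 3329 CPM at 12 h, 1950, 1914 and 2834 CPM at 24 h and 2832, 2590 and 2854 CPM at 36 h. In WT libraries ENO1 stood at 4189, 3277 and 4313 CPM at 0 h, 3710, 3823 and 3610 CPM at 6 h, 2717, 2490 and 2506 CPM at 12 h, 1559, 1591 and 2129 CPM at 24 h and 2015, 1444 and 1805 CPM at 36 h. All KO libraries were lower at 0 and 6 h and higher at 12 and 36 h, and at 24 h the groups overlapped. ENO1 was lower in KO at 0 h (log2 -0.97 ± 0.14, adjusted p = 2.02e-05) and higher at 36 h (log2 0.65 ± 0.14, adjusted p = 0.00134). ENO1 rose by 36 h in KO (log2 0.46 ± 0.14, adjusted p = 0.00843) and fell in WT (log2 -1.16 ± 0.14, adjusted p = 3.24e-08). The difference in change was log2 1.63 ± 0.20, adjusted p = 1.39e-06. ENO2, the neuronal enolase, fell by 36 h in KO (log2 -1.33 ± 0.13, adjusted p = 2.03e-10) and WT (log2 -1.37 ± 0.13, adjusted p = 1.2e-10). Per kb it made up 5.19% ± 0.0391 of the enolase level in KO and 2.58% ± 0.199 in WT at 0 h, and 1.57% ± 0.137 in KO and 2.23% ± 0.27 in WT at 36 h (SD, n = 3 each).

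PKM, pyruvate kinase, whose counts here do not separate its M1 and M2 splice forms, rose early in both genotypes and stayed up in KO. In KO libraries PKM stood at 1181, 1008 and 1155 CPM at 0 h, 4432, 3962 and 4138 CPM at 6 h, 5391, 4600 and 4652 CPM at 12 h, 2888, 2708 and 3509 CPM at 24 h and 3206, 2844 and 2778 CPM at 36 h. In WT libraries PKM stood at 1427, 1237 and 1599 CPM at 0 h, 4135, 4183 and 3967 CPM at 6 h, 4041, 3625 and 3974 CPM at 12 h, 1823, 1877 and 1798 CPM at 24 h and 1666, 1326 and 1484 CPM at 36 h. At 12, 24 and 36 h the lowest KO library was above the highest WT library, and at 6 h the groups overlapped. PKM was higher in KO at 12 h (log2 0.33 ± 0.10, adjusted p = 0.0294), 24 h (log2 0.73 ± 0.10, adjusted p = 5.49e-06) and 36 h (log2 0.98 ± 0.10, adjusted p = 1.73e-08), and 3 of 6 single omissions ended the 12 h call. At 0 h PKM was lower in KO (log2 -0.35 ± 0.10, adjusted p = 0.0331), a call that 5 of 6 single omissions ended. At 36 h PKM was still raised in KO (log2 1.40 ± 0.10, adjusted p = 3.04e-13) and was not called in WT (log2 0.07 ± 0.10, adjusted p = 0.633). Its joint adjusted p of 2.55e-07 was the smallest of the members.

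LDHA, the lactate dehydrogenase subunit that favours lactate production, fell after 0 h in both genotypes. In KO libraries LDHA stood at 1632, 1642 and 1741 CPM at 0 h, 971, 1095 and 979.8 CPM at 6 h, 1046, 944 and 948 CPM at 12 h, 874, 882 and 1340 CPM at 24 h and 1049, 932 and 1120 CPM at 36 h. In WT libraries LDHA stood at 2818, 2690 and 2825 CPM at 0 h, 1474, 1546 and 1405 CPM at 6 h, 1154, 1107 and 1057 CPM at 12 h, 709.8, 756 and 944 CPM at 24 h and 834, 624 and 739 CPM at 36 h. Every KO library was below every WT library at 0, 6 and 12 h and above at 36 h, and KO 24 h replicate 3 stood above its companions. LDHA was lower in KO at 0 h (log2 -0.73 ± 0.12, adjusted p = 0.000153) and 6 h (log2 -0.54 ± 0.12, adjusted p = 0.00303) and higher at 36 h (log2 0.50 ± 0.12, adjusted p = 0.00491). Without WT 36 h replicate 2 the 36 h difference had an adjusted p of 0.0657. LDHA fell by 36 h in KO (log2 -0.69 ± 0.12, adjusted p = 2.17e-05) and further in WT (log2 -1.92 ± 0.13, adjusted p = 1.95e-14). The difference in change was log2 1.23 ± 0.17, adjusted p = 1.39e-05. LDHB, the subunit that favours pyruvate, was higher in KO at 36 h (log2 0.34 ± 0.11, adjusted p = 0.0382), a call that 4 of 6 single omissions ended. Per kb, LDHA made up 35.2% ± 1.39 of the 2 subunits' level in KO and 43.7% ± 0.684 in WT at 0 h, and 27.7% ± 0.599 in KO and 25.5% ± 0.722 in WT at 36 h (SD, n = 3 each). By this per-kb measure LDHB was the larger part in each of the 10 groups. That order rests on exon unions of 2969 bases for LDHA and 1586 bases for LDHB. In CPM, LDHA stood above LDHB at 0 h in WT (mean 2778 against 1913 CPM), and in KO the means were close (1671 against 1649 CPM).

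PGAM1, phosphoglycerate mutase, was higher in KO at 36 h, with 272, 258 and 265 CPM in KO and 177, 154 and 164 CPM in WT libraries (log2 0.68 ± 0.17, adjusted p = 0.00685). At 6 h KO held 295, 162 and 287 CPM and WT 180.4, 176 and 161 CPM, so that KO 6 h replicate 2 lay among the WT libraries. The 6 h call (log2 0.52 ± 0.17, adjusted p = 0.0498) had adjusted p of 0.00129 to 0.28 over the single omissions. PGAM1 shares its sequence with the retrogene PGAM4 and many pseudogenes, and its counts are uncertain to that extent, although 12 pseudogene symbols held 1.15% and PGAM4 0.355% as many counts. GAPDH, which oxidises glyceraldehyde 3-phosphate and is often used as a reference gene, had the highest level per kb of all members at rest and at 36 h. No difference between KO and WT was called for it at any time, and it fell by 36 h in KO (log2 -0.58 ± 0.09, adjusted p = 1.14e-06) and WT (log2 -0.81 ± 0.09, adjusted p = 1.24e-09).

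Of the 4 regulators, 1 was called between KO and WT, PFKFB3, which was lower at 36 h, as were 6.52% of all genes. PFKFB4, an enzyme that makes and breaks the phosphofructokinase activator fructose 2,6-bisphosphate, stood in KO libraries at 9.18, 15 and 11.5 CPM at 0 h, 10.1, 6.73 and 9.80 CPM at 6 h, 11.4, 10.8 and 13.2 CPM at 12 h, 14.4, 13.4 and 16.5 CPM at 24 h and 11.8, 12.7 and 9.83 CPM at 36 h. In WT libraries PFKFB4 stood at 13.4, 17 and 14.2 CPM at 0 h, 9.53, 11.3 and 11.6 CPM at 6 h, 9.13, 11 and 8.61 CPM at 12 h, 8.43, 13.2 and 11.9 CPM at 24 h and 11.9, 10.3 and 11 CPM at 36 h. The groups overlapped at 0, 6, 12 and 36 h, and at 24 h every KO library was above every WT library without a call (log2 0.41 ± 0.18, adjusted p = 0.18). PFKFB4 fell by 12 h in WT (log2 -0.62 ± 0.19, adjusted p = 0.0103) and was not called in KO (log2 0.03 ± 0.19, adjusted p = 0.949). No difference between these changes was called (log2 0.65 ± 0.26, adjusted p = 0.261). PFKFB3, the inducible enzyme of this kind, was lower in KO at 36 h (log2 -0.47 ± 0.16, adjusted p = 0.0449), with 38.4, 28.1 and 25.3 CPM in KO and 47.7, 35.3 and 42.8 CPM in WT, which overlapped, and 4 of 6 single omissions ended it. PFKFB2 rose by 6 h in KO (log2 0.48 ± 0.12, adjusted p = 0.00176) and WT (log2 0.40 ± 0.12, adjusted p = 0.0105). PDK1, the kinase that switches off pyruvate dehydrogenase, fell by 6 h in WT (log2 -0.49 ± 0.14, adjusted p = 0.0123) and not by a called amount in KO (log2 0.15 ± 0.15, adjusted p = 0.505). These changes were not called different (log2 0.64 ± 0.21, adjusted p = 0.086).

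Among the members listed under oxygen sensing, HIF1A, the oxygen-controlled subunit itself, rose in both genotypes. In KO libraries HIF1A stood at 94.3, 100.2 and 92.1 CPM at 0 h, 124, 118 and 127 CPM at 6 h, 148, 157 and 142 CPM at 12 h, 169, 157 and 176 CPM at 24 h and 186, 169.8 and 187 CPM at 36 h. In WT libraries HIF1A stood at 89, 104 and 91.3 CPM at 0 h, 147, 148 and 154 CPM at 6 h, 157, 139 and 144 CPM at 12 h, 176, 169 and 176 CPM at 24 h and 210.2, 169 and 183 CPM at 36 h. At 6 h every KO library was below every WT library, and at the other times they overlapped. By 36 h HIF1A was up in KO (log2 0.92 ± 0.09, adjusted p = 2.64e-10) and in WT (log2 0.99 ± 0.09, adjusted p = 6.05e-11). At 6 h it was lower in KO (log2 -0.28 ± 0.09, adjusted p = 0.0365), a call that every single omission of a 6 h library ended, and no difference in its change was called (joint adjusted p = 0.347). The HIF1A protein, which is controlled mainly by its breakdown, was not measured.

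EGLN3, the prolyl hydroxylase that HIF itself induces, was the member most often higher in KO, at 4 of 5 times. In KO libraries EGLN3 stood at 5.31, 4.93 and 6.95 CPM at 0 h, 14.3, 20.6 and 14.3 CPM at 6 h, 9.15, 8.71 and 8.68 CPM at 12 h, 5.67, 8.26 and 4.99 CPM at 24 h and 4.49, 4.52 and 5.54 CPM at 36 h. In WT libraries EGLN3 stood at 2.68, 3.49 and 3.08 CPM at 0 h, 7.68, 7.16 and 8.80 CPM at 6 h, 7.32, 6.39 and 8.73 CPM at 12 h, 1.77, 3.27 and 2.92 CPM at 24 h and 2.63, 1.94 and 1.51 CPM at 36 h. The groups did not overlap at 0, 6, 24 or 36 h, and both genotypes rose early and were not called against 0 h from 24 h on. KO exceeded WT at 0 h (log2 0.95 ± 0.24, adjusted p = 0.013) and 6 h (log2 1.06 ± 0.21, adjusted p = 0.000822). It did so again at 24 h (log2 1.26 ± 0.24, adjusted p = 0.000553) and 36 h (log2 1.25 ± 0.25, adjusted p = 0.000527). The 0 h call was lost without WT 0 h replicate 1 or KO 0 h replicate 3. EGLN1, the main hydroxylase of HIF1A, fell by 6 h in KO (log2 -0.96 ± 0.24, adjusted p = 0.00204) and WT (log2 -0.83 ± 0.24, adjusted p = 0.0097) and was not called between genotypes. Against 0 h, EGLN1 was not called in WT from 12 h on, nor in KO at 36 h (log2 -0.04 ± 0.23, adjusted p = 0.915).

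Of the 7 other hypoxia-induced genes, BNIP3L, a receptor for the removal of mitochondria, was lower in KO at 4 of 5 times. In KO libraries BNIP3L stood at 104, 91.1 and 98.5 CPM at 0 h, 46.9, 59.4 and 54.5 CPM at 6 h, 60.8, 71.7 and 76.2 CPM at 12 h, 66.5, 66.9 and 65.1 CPM at 24 h and 60.5, 48.8 and 59.5 CPM at 36 h. In WT libraries BNIP3L stood at 156, 149.8 and 154 CPM at 0 h, 89.5, 97 and 96.9 CPM at 6 h, 80.4, 75.6 and 75.6 CPM at 12 h, 99.95, 94.2 and 95 CPM at 24 h and 84.6, 71.2 and 82.8 CPM at 36 h. KO lay wholly below WT at 0, 6, 24 and 36 h, and at 12 h the groups overlapped. BNIP3L differed by log2 -0.65 ± 0.10, adjusted p = 6.25e-05 at 0 h and log2 -0.82 ± 0.10, adjusted p = 5.78e-07 at 6 h. Later it differed by log2 -0.54 ± 0.10, adjusted p = 0.000385 at 24 h and log2 -0.50 ± 0.10, adjusted p = 0.000681 at 36 h. It fell at every later time in both genotypes, with log2 -0.80 ± 0.10 in KO and -0.94 ± 0.10 in WT at 36 h. Its relative BNIP3 fell likewise, with log2 -0.58 ± 0.12 in KO and -0.68 ± 0.12 in WT at 36 h. BNIP3 was higher in KO at 12 h (log2 0.40 ± 0.12, adjusted p = 0.0252), a call that 3 of 6 single omissions ended.

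VEGFA, the vascular growth factor that low oxygen induces, had under 1 CPM at rest and was called higher late in KO. In KO libraries VEGFA stood at 0.808, 0 and 0.564 CPM at 0 h, 0.461, 0.262 and 0.780 CPM at 6 h, 0.681, 0.529 and 0.324 CPM at 12 h, 0.810, 3.20 and 3.46 CPM at 24 h and 6.64, 6.07 and 5.30 CPM at 36 h. In WT libraries VEGFA stood at 0.427, 0.805 and 0.807 CPM at 0 h, 0.0460, 0.480 and 0.139 CPM at 6 h, 0.507, 0.817 and 0.186 CPM at 12 h, 0.530, 0.702 and 0.381 CPM at 24 h and 1.31, 1.08 and 1.18 CPM at 36 h. At 24 and 36 h every KO library was above every WT library, though KO 24 h replicate 1 only just. VEGFA was higher in KO at 24 h (log2 2.21 ± 0.56, adjusted p = 0.00898), with an adjusted p of 0.058 without KO 24 h replicate 3. At 36 h it was higher as well (log2 2.31 ± 0.51, adjusted p = 0.00159). Its change by 36 h was log2 3.40 ± 0.55, adjusted p = 5.93e-06 in KO and log2 0.86 ± 0.57, adjusted p = 0.245 in WT. The difference in change was called (log2 2.53 ± 0.79, adjusted p = 0.0375) but lost in 10 of 12 single omissions. The 0 h counts behind these folds were 19, 0 and 15 reads in KO and 11, 6 and 22 in WT.

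NDRG1, a stress-responsive gene that HIF induces, had its highest KO mean at 12 h. In KO libraries NDRG1 stood at 4.42, 3.52 and 5.37 CPM at 0 h, 12.9, 17.4 and 15.7 CPM at 6 h, 22.6, 40.04 and 46.8 CPM at 12 h, 9.46, 6.87 and 7.31 CPM at 24 h and 7.26, 7.25 and 6.74 CPM at 36 h. In WT libraries NDRG1 stood at 3.69, 5.10 and 4.07 CPM at 0 h, 16.1, 11.1 and 15.9 CPM at 6 h, 14.3, 11.2 and 19.1 CPM at 12 h, 9.78, 9.43 and 11 CPM at 24 h and 9.34, 8.93 and 8.91 CPM at 36 h. At 12 h every KO library was above every WT library, KO 12 h replicate 1 being the lowest of them, and at 36 h every KO library was below. KO exceeded WT by log2 1.30 ± 0.21, adjusted p = 4.02e-05 at 12 h, and at 36 h no difference was called (log2 -0.36 ± 0.22, adjusted p = 0.329). NDRG1 rose by 12 h in KO (log2 2.98 ± 0.23, adjusted p = 2.18e-12) and in WT (log2 1.83 ± 0.23, adjusted p = 1.26e-07). P4HA1, a collagen prolyl hydroxylase, was lower in KO at 6 h (log2 -0.39 ± 0.12, adjusted p = 0.0365) and higher at 24 h (log2 0.38 ± 0.12, adjusted p = 0.044) and 36 h (log2 0.43 ± 0.12, adjusted p = 0.0145). Single omissions ended these calls in 5, 4 and 2 of 6 cases. Its relative P4HA2 was at or under 1.39 CPM in every library, and ANKRD37 was at or under 3.48 CPM, and neither was called in any comparison.

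Of the 3 pentose phosphate members, TKT and PGD fell in both genotypes and TALDO1 fell in KO, and TKT was called between genotypes. TKT, the transketolase that links the pathway back to glycolysis, held 875, 845 and 904 CPM in KO and 705, 688 and 755 CPM in WT at 0 h, and 303, 309 and 310.1 CPM in KO and 259, 243 and 261 CPM in WT at 36 h. All libraries at 36 h were far below those at 0 h, with log2 -1.51 ± 0.09, adjusted p = 3.43e-15 in KO and log2 -1.49 ± 0.09, adjusted p = 5.28e-15 in WT. KO was above WT at 12 h (log2 0.28 ± 0.09, adjusted p = 0.0437) and 36 h (log2 0.27 ± 0.09, adjusted p = 0.0411). Every single omission of a 36 h library ended the 36 h call, and 3 of 6 ended that at 12 h. PGD, an NADPH-making dehydrogenase of the pathway, fell by 36 h in KO (log2 -0.43 ± 0.10, adjusted p = 0.000394) and WT (log2 -0.43 ± 0.10, adjusted p = 0.000394). TALDO1, transaldolase, fell by 6 h in KO (log2 -0.56 ± 0.12, adjusted p = 0.000282) and was not called in WT (log2 -0.18 ± 0.12, adjusted p = 0.317), and the difference in change was not called (log2 -0.39 ± 0.16, adjusted p = 0.232). By 36 h the TALDO1 change was not called in KO either (log2 -0.18 ± 0.12, adjusted p = 0.233).

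Genes of the same pathways outside the 38 members were read from 3 further lists. TXNIP was added from a list of the MondoA axis, whose other genes, ARRDC4, MLXIP, MLX and MLXIPL, are not reported here. Of the 11 further pentose phosphate genes tested, 1 was lower in KO at 36 h, against 6.52% of all genes. It was H6PD, a dehydrogenase of the endoplasmic reticulum (log2 -0.70 ± 0.15, adjusted p = 0.00105).

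Of 32 other genes of glycolysis and pyruvate use, 1 was higher and 7 were lower in KO at 6 h, against 5.21% higher and 4.76% lower of all genes. The lower count lay above that background and the higher count under it. At 36 h 4 were higher and 3 lower, against 6.95 and 6.52% of all genes, so that both counts lay above that background by few genes. PDHA1, a subunit of pyruvate dehydrogenase, rose by 36 h in KO (log2 2.04 ± 0.13, adjusted p = 1.56e-14) and in WT (log2 1.32 ± 0.13, adjusted p = 3.61e-10), and further in KO (log2 0.72 ± 0.18, adjusted p = 0.00991). PDP1, a phosphatase that reactivates that enzyme, was lower in KO at 36 h (log2 -0.69 ± 0.13, adjusted p = 0.000232). BPGM, the mutase that makes 2,3-bisphosphoglycerate, was lower in KO at 0 h (log2 -0.68 ± 0.15, adjusted p = 0.00366) and 36 h (log2 -0.58 ± 0.15, adjusted p = 0.00702).

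Of 45 other hypoxia and HIF genes tested, 3 were higher and 6 lower in KO at 0 h, against 2.96 and 3.11% of all genes. Both counts lay above that background, the higher one by few genes. At 36 h 2 were higher and 8 lower, against 6.95 and 6.52%, so that the higher count lay under that background and the lower count above it. The lower ones at 36 h included CXCR4, a chemokine receptor (log2 -1.80 ± 0.13, adjusted p = 1.09e-11), and CCNG2, a cyclin that restrains the cell cycle (log2 -1.28 ± 0.24, adjusted p = 0.000261). FAM162A, a mitochondrial protein that HIF induces, was lower in KO at 0 h (log2 -0.80 ± 0.15, adjusted p = 0.000574), and its change by 36 h was more upward in KO (log2 1.23 ± 0.21, adjusted p = 0.000197). EGLN2, the third hydroxylase, fell by 36 h in KO (log2 -0.70 ± 0.12, adjusted p = 7.06e-06) and was not called in WT (log2 -0.27 ± 0.11, adjusted p = 0.06), a difference in change that was not called (log2 -0.43 ± 0.16, adjusted p = 0.0939).

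TXNIP, which restrains glucose uptake and is driven by the glucose-sensing factor MondoA, was higher in KO at every time. At 0 h TXNIP held 22.6, 21.8 and 22.2 CPM in KO and 3.46, 1.61 and 3.70 CPM in WT, and at 36 h 10.5, 14.2 and 15.4 CPM in KO and 4.21, 3.87 and 3.20 CPM in WT. No KO library overlapped with a WT library of its time. TXNIP differed by log2 2.83 ± 0.32, adjusted p = 1.85e-07 at 0 h and log2 1.83 ± 0.31, adjusted p = 6.46e-05 at 36 h. TXNIP fell by 6 h in KO (log2 -2.39 ± 0.30, adjusted p = 1.19e-07) and in WT (log2 -1.11 ± 0.35, adjusted p = 0.0181), without a called difference in change (log2 -1.28 ± 0.46, adjusted p = 0.142).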

How the data were processed

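RNA was purified on magnetic beads from lysates of Jurkat cells and made into 30 Illumina libraries, per the labels' protocols. The authors deposited expected counts per gene symbol, 1 file per library and 1 table of all, with equal values in 30 of 30. The submitters' processing notes name cutadapt, STAR, DESeq2, GRCh37 and hg19 without versions, while for the counting program and annotation a name is not given in the sources used here. Of 54300 symbols 195 held a non-whole value, none of them a member, and values were rounded.

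Testing used edgeR 4.0.16 and R 4.3.3: filterByExpr at a minimum count of 10, TMM scaling, and the quasi-likelihood F test in 1 fit of 30 libraries with 10 group means. P-values were adjusted by Benjamini-Hochberg over 21554 genes within each comparison. SE is the log2 fold change over the root of F. The script was tested on simulated data. Totals of 5.64 to 28.2 M set the precision. Per-kb levels use exon unions of GENCODE 29 on GRCh38, and promoters come from RefSeq on GRCh38.p14, both matched by symbol. Which transcripts the cells expressed was not measured, so per-kb shares within an enzyme or carrier family depend on the exon-union lengths.

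Alternatives were DESeq2 1.42.0 size factors or test, no filter, a fit of only the groups compared, a replicate block, and omission of each library. Values in every library are given for the 3 called members with the smallest adjusted p between genotypes at each time, the 2 largest called changes at each later time in each genotype, the 5 smallest joint p, and HIF1A, SLC2A1, HK2, LDHA and PFKFB4. From other lists up to 3 called genes, TXNIP and EGLN2 were named, and some genes that this rule takes in are not reported here. Members and lists were chosen with earlier results of these data known.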

Additional observations from a re-analysis of the deposited data

Results flagged for a closer look

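The change from 0 h differed between KO and WT for 16 members, which is what marked them for a closer look, each by edgeR's quasi-likelihood test of the difference itself. In the joint test over the 4 later times the adjusted p was 2.55e-07 for PKM, 2.02e-06 for ALDOA, 2.77e-06 for ENO1, 6.32e-06 for LDHA and 1.88e-05 for GPI. It was 0.000141 for PGK1, 0.000174 for ALDOC, 0.000522 for TPI1, 0.000858 for NDRG1 and 0.00119 for SLC2A3. It was 0.00193 for P4HA1, 0.002 for PFKL, 0.0191 for BNIP3L and 0.0434 for PGAM1. With 1 library left out, BNIP3L lost its call in 4 of 30 refits, with adjusted p up to 0.0712, and PGAM1 in 21 of 30, with adjusted p up to 0.102. LDHB and VEGFA were called at 36 h only, with differences in change of 0.55 and 2.53 on the log2 scale, KO minus WT. Neither was called in the joint test (adjusted p = 0.138 and 0.0599), and most single omissions ended the VEGFA call, as described above. Groups of 3 libraries were not tested for outlying values.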

How the results depend on the processing

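Of 283 calls of a member, 276 were kept with DESeq2 size factors, 258 without the filter on low counts and 279 with the DESeq2 test. A fit of only the groups compared kept 254 of 269. In 2238 refits of a call with 1 library left out, 1968 calls were kept and 270 lost. In none of these did a called value change sign. Among 699 refits of uncalled values of HIF1A, SLC2A1, HK2, LDHA and PFKFB4, 52 had the other sign.

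The number of members called between KO and WT at 12 h was 7, and it was 4 with DESeq2 size factors, 3 in the fit of only those groups, and 3 to 6 with a library left out. At 24 h it was 8, and 3 in the fit of only those groups and 3 to 9 with a library left out. The difference in change at 6 h had 1 call, against 2 with DESeq2 size factors, 2 without the filter, 5 with the DESeq2 test, 4 in the fit of only those groups and 0 to 2 with a library left out. That at 24 h had 11, and 7 to 12 with a library left out. The cause was not tested.

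WT and KO titles share numbers at 0 to 24 h. Deviations of libraries with the same number correlated by -0.015 to 0.126, above 0.1 in 1 of 12 pairs. These values cannot exclude that such libraries shared handling or a culture. With a replicate block for that number, 57 of 57 calls were kept, the difference at 6 h had 4 calls, and the other counts stayed within 1.5 times. Depth limits VEGFA, P4HA2 and ANKRD37 most, which had few reads in every group at rest.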
